A study of Mus musculus with 6 samples.

Results

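A group of 9 genes that regulate transcription and RNA in germ cells was examined in a mouse embryonic stem (ES) cell line labelled as a knockout of Dppa4, which encodes a nuclear protein that binds chromatin in pluripotent cells. The members were chosen by name, with earlier results of these data known. They were the transcription factor genes Sohlh2, Sohlh1, Figla, Nobox and Prdm1, the RNA-binding protein genes Dazl and Nanos3, the TFIID subunit gene Taf7l, and Tex19.1. Each probe set whose platform symbol was exactly a member's name was used, which gave 9 of 45037 probe sets. Of the 9 genes, 8 had a probe set under their symbol. Dazl had 2, the other 7 had 1 each, and for Nanos3 no value is given here because no probe set carried its symbol.

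The Dppa4 knockout ES cell line CI#243.12 was measured on 3 arrays and set against 3 arrays of the Dppa4 hemizygous line CI#84.2 from which it was derived. Both lines were grown on a layer of mouse embryonic fibroblast feeder cells, so both RNA pools hold fibroblast RNA. Each group is a single cell line, so that the Dppa4 genotype and other differences between the lines cannot be told apart. No other agent, age or sex is named by the labels, and nothing there says that replicates were separate cultures. The p-values therefore measure the spread between these arrays, which may be technical.

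Germ cell regulators are silent in most body tissues, where DNA methylation and repressor complexes keep many of their promoters shut. Dazl binds messenger RNAs and promotes their translation in germ cells. Sohlh1 and Sohlh2 are basic helix-loop-helix partners that act in spermatogonia and early oocytes, where Figla and Nobox also work. Prdm1, known as Blimp1, starts the primordial germ cell programme and acts in endoderm and lymphocytes as well. Tex19.1 limits retrotransposons in germ cells and is active in ES cells too. Taf7l takes the place of Taf7 in the TFIID complex of germ cells, and Nanos3 protects primordial germ cells from death.

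The promoters of the members that fell are shown first, because germ cell promoters of this kind are known to be silenced through methylation of CG pairs. Methylation was not measured here, and its part in the falls was not tested. The sequences are from RefSeq, build GRCm38.p6, read from 5′ to 3′ along the gene, and they cover the 250 bases before the start, with each CG in capitals. The windows are chr17:50293621-50293870, minus strand for Dazl, chr3:55181794-55182043, plus strand for Sohlh2 and chr11:121145893-121146142, plus strand for Tex19.1.
Dazl: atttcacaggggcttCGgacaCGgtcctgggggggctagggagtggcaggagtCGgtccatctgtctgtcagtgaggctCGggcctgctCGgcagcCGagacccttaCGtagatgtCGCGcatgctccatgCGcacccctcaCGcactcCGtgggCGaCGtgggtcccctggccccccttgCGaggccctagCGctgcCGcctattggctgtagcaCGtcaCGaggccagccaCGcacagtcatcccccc
Sohlh2: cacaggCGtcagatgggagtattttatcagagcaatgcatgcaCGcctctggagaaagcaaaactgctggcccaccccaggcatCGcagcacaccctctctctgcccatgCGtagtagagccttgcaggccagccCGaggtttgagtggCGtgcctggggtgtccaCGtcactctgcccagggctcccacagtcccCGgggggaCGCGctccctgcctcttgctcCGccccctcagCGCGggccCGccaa
Tex19.1: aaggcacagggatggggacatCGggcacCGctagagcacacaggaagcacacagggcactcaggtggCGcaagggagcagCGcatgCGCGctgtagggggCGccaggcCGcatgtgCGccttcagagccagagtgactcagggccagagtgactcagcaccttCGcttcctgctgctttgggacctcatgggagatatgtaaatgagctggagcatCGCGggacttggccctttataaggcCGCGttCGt

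These windows held 20 CG pairs for Dazl, 14 for Sohlh2 and 15 for Tex19.1, where the median over 32851 promoter windows was 6. The ratio of observed to expected CG pairs was 0.71 for Dazl, 0.643 for Tex19.1 and 0.542 for Sohlh2, against a median of 0.374. It was above that median in 8 of the 9 members, and the exception was Nanos3 with 0.151. The richest window by this ratio was that of Taf7l with 1.13, higher than 98.6% of all windows. Members that fell and members that did not pass the test thus both had ratios above the median.

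The palindrome CACGTG, the E-box bound by Mga with Max in a repressor complex of germ cell genes, was searched in the same windows. Sohlh1 held it 3 times and Taf7l 1 time, and no other member's window held it. Of all windows, 6.02% held CACGTG and 0.0609% held it at least 3 times. Both windows are printed with CACGTG in capitals, because they are the member promoters with this element: chr2:25847249-25847498, minus strand for Sohlh1 and chrX:134476506-134476740, minus strand for Taf7l, whose window was cut where an annotated transcript begins.
Sohlh1: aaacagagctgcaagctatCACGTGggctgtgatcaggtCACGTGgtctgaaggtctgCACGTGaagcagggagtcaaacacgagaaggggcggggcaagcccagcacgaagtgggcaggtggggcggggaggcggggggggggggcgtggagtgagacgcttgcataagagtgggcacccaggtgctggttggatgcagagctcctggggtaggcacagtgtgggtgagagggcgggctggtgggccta
Taf7l: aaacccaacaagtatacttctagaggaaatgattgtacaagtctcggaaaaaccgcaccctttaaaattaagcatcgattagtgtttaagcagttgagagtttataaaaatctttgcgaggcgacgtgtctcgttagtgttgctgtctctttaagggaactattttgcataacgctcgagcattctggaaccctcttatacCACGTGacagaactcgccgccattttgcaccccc

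The 3 copies in Sohlh1 began 231, 211 and 192 bases before the start, and that in Taf7l 49 bases before it. The position in Taf7l and its ratio of CG pairs given above refer to its uncut window. The stretch printed for Taf7l lacks the bases nearest the start, so a count to its printed end is smaller. The wider E-box CANNTG, which includes CACGTG, was found in all 9 member windows and in 66.2% of all windows. The E2F element GGCGGGAA, searched on both strands, was found in 0 of 9 member windows and in 1.86% of all windows. These matches describe letters only, and no binding was measured.

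The labels were checked on the targeted gene. Dppa4 (1429597_at) read 8.68, 8.84 and 8.68 in the knockout arrays, against 10.30, 10.35 and 10.45 in the parental arrays, on the log2 scale of the deposited RMA (robust multi-array average) values. The change was -1.63 (SE 0.08, adjusted p = 0.000112, limma). A signal of 32.2% of the parental level thus remained, and all 3 knockout arrays were above the background level of 3.78, the 95th percentile of the means of 80 olfactory and vomeronasal receptor probe sets. It is unknown here whether the probe set falls inside the deletion. ES cell markers were high in both lines: Pou5f1 averaged 11.85 ± 0.02 in knockout and 11.91 ± 0.05 in parental arrays, Sox2 10.87 ± 0.03 and 10.94 ± 0.03, and Nanog 10.41 ± 0.14 and 10.90 ± 0.12 (SD, n = 3 each). None of the 8 ES cell markers passed the test of limma, and 1 was lower at an unadjusted p under 0.05. Their mean was 11.09, 11.09 and 11.12 in the knockout arrays, against 11.19, 11.23 and 11.13 in the parental arrays, without overlap and with a difference of -0.08 (exact permutation p = 0.1, two-sided). The feeder gene Col1a2, a collagen gene, averaged 12.71 ± 0.07 in knockout and 12.61 ± 0.08 in parental arrays (SD, n = 3 each). All 13 feeder markers measured were above background by their higher group mean, and their mean was 10.42 to 10.52 in knockout and 10.25 to 10.37 in parental arrays. That mean was higher in the knockout by 0.14, without overlap (exact permutation p = 0.1, two-sided, the smallest that 3 against 3 allow).

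Among the germ cell regulators, 4 of 9 probe sets, of 3 of 8 genes, were lower in the knockout at an adjusted p under 0.05, and 0 were higher (limma; 0 at an unadjusted p under 0.05, where 4.3% of all probe sets were). Over all 45037 probe sets, 0.333% were called lower and 0.0688% higher. By gene, with 1 probe set each, 0.511% of 18193 were called lower. Dazl, Sohlh2 and Tex19.1 were the genes that fell. The median change of the 9 probe sets was -0.48, against 0.00 over all probe sets. Every knockout array lay below every parental array for 6 of the 9, where this held for 7.52% of all probe sets. Since the members were chosen with earlier results of these data known, these shares describe the list and do not test it. In these mixed RNA pools, fewer cells that express a gene and less RNA per cell cannot be told apart.

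**Figure D1:**
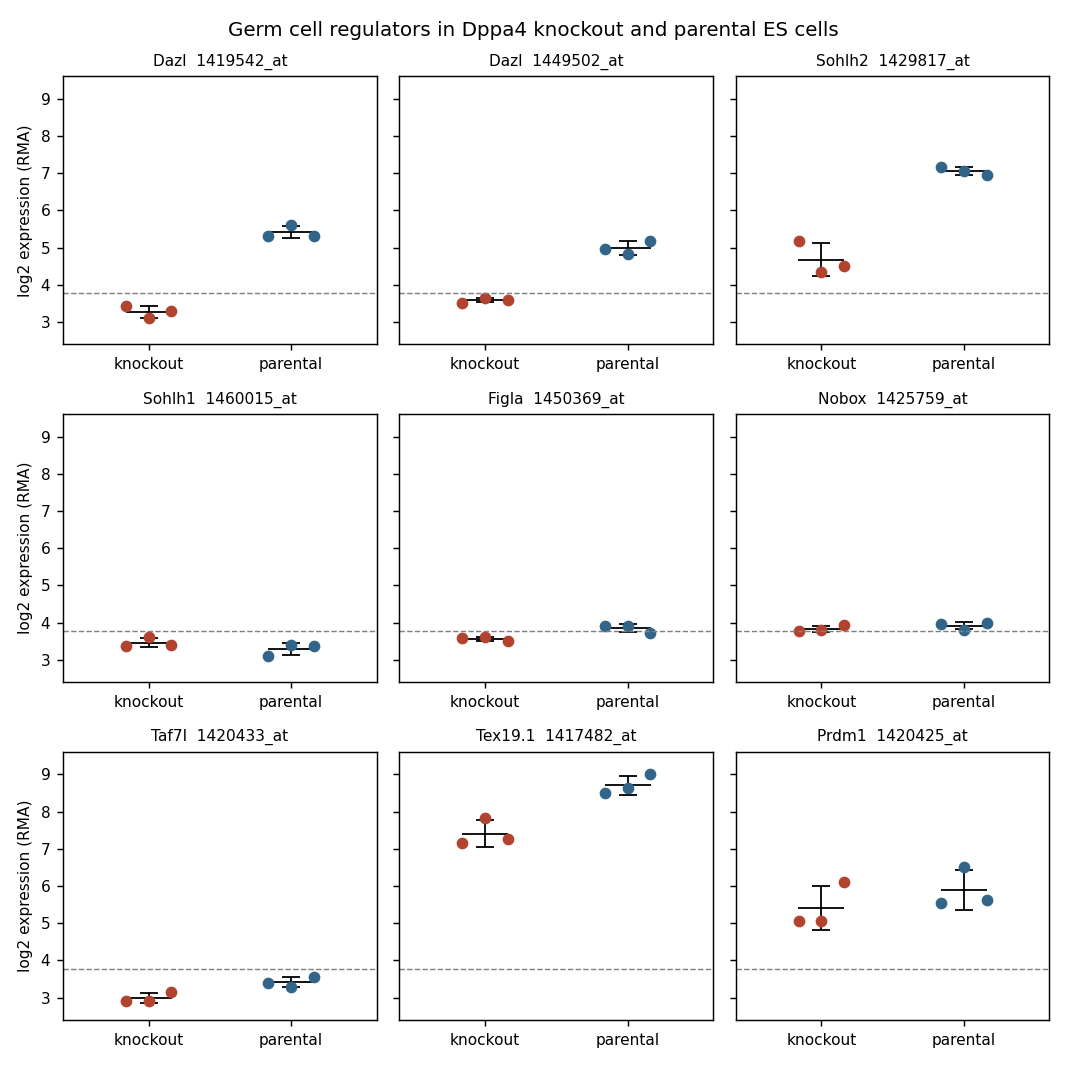
Log2 expression (RMA) of the 9 probe sets on each array, with 3 knockout arrays (red) to the left of 3 parental arrays (blue); black bars are the mean and SD, and the dashed line is the background level of 3.78. The groups stand apart for both Dazl probe sets, Sohlh2 and Tex19.1, the Prdm1 arrays overlap widely, and Sohlh1, Figla, Nobox and Taf7l lie near or below the dashed line.

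Dazl, the RNA-binding translational activator, fell below the background level in the knockout. Probe set 1419542_at read 3.43, 3.11 and 3.30 in the knockout arrays, against 5.32, 5.61 and 5.32 in the parental arrays. All 3 knockout arrays were below the background level of 3.78 and all 3 parental arrays above it. The change was -2.14 (SE 0.11, adjusted p = 0.000155, limma), and Dazl was at least 3.11-fold lower, with the knockout arrays set at the background level.

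The second Dazl probe set, 1449502_at, read 3.52, 3.64 and 3.60 in the knockout arrays, against 4.96, 4.82 and 5.19 in the parental arrays. Again the knockout arrays were all below background and the parental arrays all above it. The change was -1.40 (SE 0.10, adjusted p = 0.000946, limma), or at least 2.31-fold lower. Both probe sets thus gave bounds, and their differing changes carry no further order. With each array left out in turn, the changes ran from -2.21 to -2.04 on the first probe set and from -1.49 to -1.30 on the second, and Dazl was called in all 12 of these fits.

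Sohlh2, the helix-loop-helix factor of early spermatogonia and oocytes, fell and was above background on all 6 arrays. Probe set 1429817_at read 5.18, 4.34 and 4.50 in the knockout arrays, against 7.16, 7.07 and 6.95 in the parental arrays. The parental arrays lay within 0.21 of each other, while the knockout arrays spread over 0.84, with replicate 1 the highest. The gap between the highest knockout and the lowest parental array was 1.77. The change was -2.39 (SE 0.20, adjusted p = 0.00204, limma), a 5.23-fold difference. Sohlh2 was called in each of the 6 single-array omissions, with changes from -2.64 to -2.22 (adjusted p 0.000418 to 0.021, limma). It was also called with the replicate number as a block (adjusted p = 0.00752, limma). With knockout replicate 3 and parental replicate 2 both left out, a setting chosen after seeing the data, the change was -2.29 and did not pass (adjusted p = 0.0799, limma).

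Tex19.1, the retrotransposon restriction gene, fell and was likewise above background on all 6 arrays. Probe set 1417482_at read 7.15, 7.83 and 7.25 in the knockout arrays, against 8.51, 8.63 and 9.00 in the parental arrays. The groups did not overlap, with a gap of 0.68, although knockout replicate 2 stood nearer to the parental arrays than the others. The change was -1.30 (SE 0.19, adjusted p = 0.0359, limma), a 2.47-fold difference that left 40.5% of the parental signal. This call was lost without knockout replicate 1 (-1.17, adjusted p = 0.154) or 3 (-1.22, 0.166) and without parental replicate 1 (-1.41, 0.0998), 2 (-1.34, 0.114) or 3 (-1.16, 0.115), all by limma. It was also lost with the replicate number as a block (-1.30, adjusted p = 0.0921).

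The feeder mean was higher in the same knockout arrays in which these genes fell. With that mean as a covariate, the changes were -2.33 and -1.42 for the Dazl probe sets, -2.69 for Sohlh2 and -1.42 for Tex19.1, each at least as large in size as without it. Their adjusted p-values became 0.0293, 0.239, 0.178 and 1 (limma), so that 1 of the 4 calls held. The standard errors grew 1.80-fold to 1.95-fold over the 9 probe sets, since 69.4% of the variance of the feeder mean lay between the groups.

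**Figure D2:**
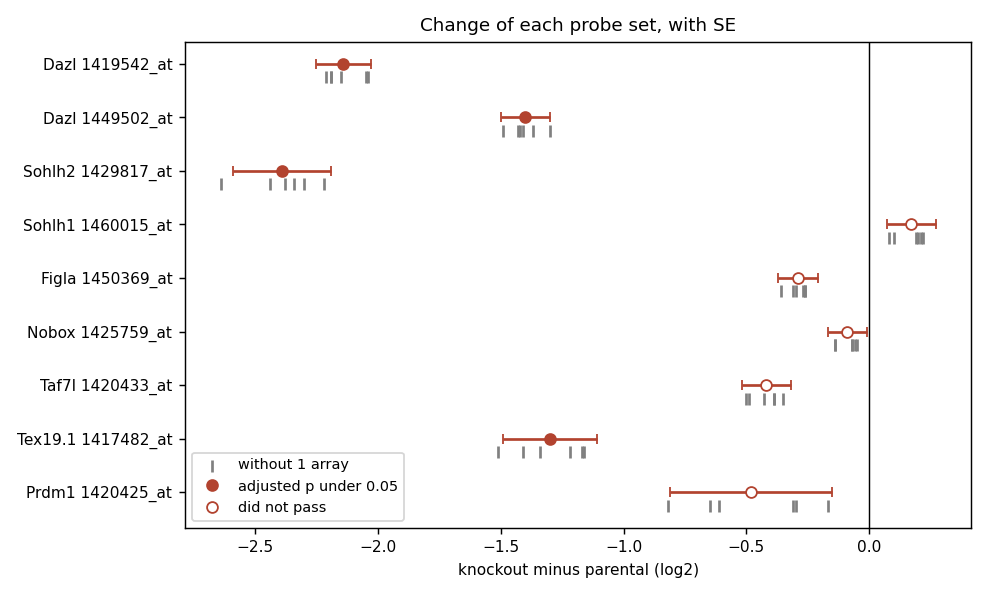
Change of each probe set as knockout minus parental on the log2 scale (circle) with its SE (bar), filled where the adjusted p was under 0.05; grey ticks are the changes without any 1 of the 6 arrays. Every tick of the filled probe sets lies at -1.16 or below, and the ticks of Prdm1 spread from -0.82 to -0.17.

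Sohlh1, the partner of Sohlh2, was below background in both lines. Probe set 1460015_at read 3.37, 3.60 and 3.41 in the knockout arrays, against 3.11, 3.40 and 3.37 in the parental arrays, all below background. The groups overlapped, and the change was 0.17 (SE 0.10, adjusted p = 0.693, limma). From readings below background in both lines no fold is given.

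The oocyte factors were at the edge of detection. Figla, which activates the genes of the egg coat, read 3.58, 3.60 and 3.51 on 1450369_at in the knockout arrays, against 3.92, 3.92 and 3.73 in the parental arrays. The groups did not overlap, with 0 knockout and 2 parental arrays above background, but the change of -0.29 did not pass (SE 0.08, adjusted p = 0.282, limma). The homeobox gene Nobox read 3.77, 3.79 and 3.93 on 1425759_at in the knockout arrays, against 3.96, 3.81 and 3.98 in the parental arrays. Its groups overlapped, and the change was -0.09 (SE 0.08, adjusted p = 0.816, limma).

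Taf7l, the germ cell variant of a TFIID subunit, read 2.91, 2.91 and 3.14 on 1420433_at in the knockout arrays, against 3.40, 3.28 and 3.55 in the parental arrays. Every knockout array lay below every parental array, yet all 6 were below background, so no fold is given. The change was -0.42 (SE 0.10), with an adjusted p = 0.201 (limma; unadjusted p = 0.00281). Together with Figla, Taf7l accounts for the 2 probe sets that were lower at an unadjusted p under 0.05 without passing the adjusted test. That unadjusted rule held for 6 of 9 member probe sets and for 5.19% of all probe sets.

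Prdm1, the repressor that starts the germ cell programme, was expressed in both lines and varied more within them than between them. Probe set 1420425_at read 5.07, 5.06 and 6.10 in the knockout arrays, against 5.53, 6.51 and 5.62 in the parental arrays. The knockout arrays spread over 1.04 and the parental arrays over 0.98, while the group means differed by -0.48 (SE 0.33, adjusted p = 0.725, limma). Knockout replicate 3 and parental replicate 2 were the high arrays, and the groups overlapped. Without parental replicate 2 the change was -0.17, and without knockout replicate 3 it was -0.82. Without both it was -0.51 (adjusted p = 0.343, limma), and the range of adjusted p over all single omissions was 0.509 to 0.903.

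The 7 endoderm markers did not share one pattern over these arrays. Of the 7, 2 (the transcription factor genes Foxa2 and Sox17) had the highest value of each group on knockout replicate 3 and parental replicate 2. Foxa2 read 4.59, 4.87 and 4.99 in the knockout arrays, against 4.46, 5.38 and 4.12 in the parental arrays. Sox17 read 3.74, 3.90 and 4.30 on 1421657_a_at in the knockout arrays, against 3.96, 4.57 and 3.83 in the parental arrays. The other 5 (Gata4, Gata6, Sox7, Afp and Ttr) all had their lowest knockout value on knockout replicate 3, some by narrow margins. There Gata4 read 3.48 (next lowest 3.51), Sox7 4.72 (4.74) and Afp 3.73 (3.75), and Gata4 was below background on all 6 arrays. Gata6 was highest in the parental group on parental replicate 2 (4.59), as Prdm1 was. The mean of those 5 was 4.37, 4.28 and 4.20 in the knockout arrays, against 4.27, 4.28 and 4.28 in the parental arrays. The mean of all 7 was 4.31, 4.31 and 4.33 in the knockout arrays, against 4.25, 4.48 and 4.19 in the parental arrays. Their part in the spread of Prdm1 was not tested.

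**Figure D3:**
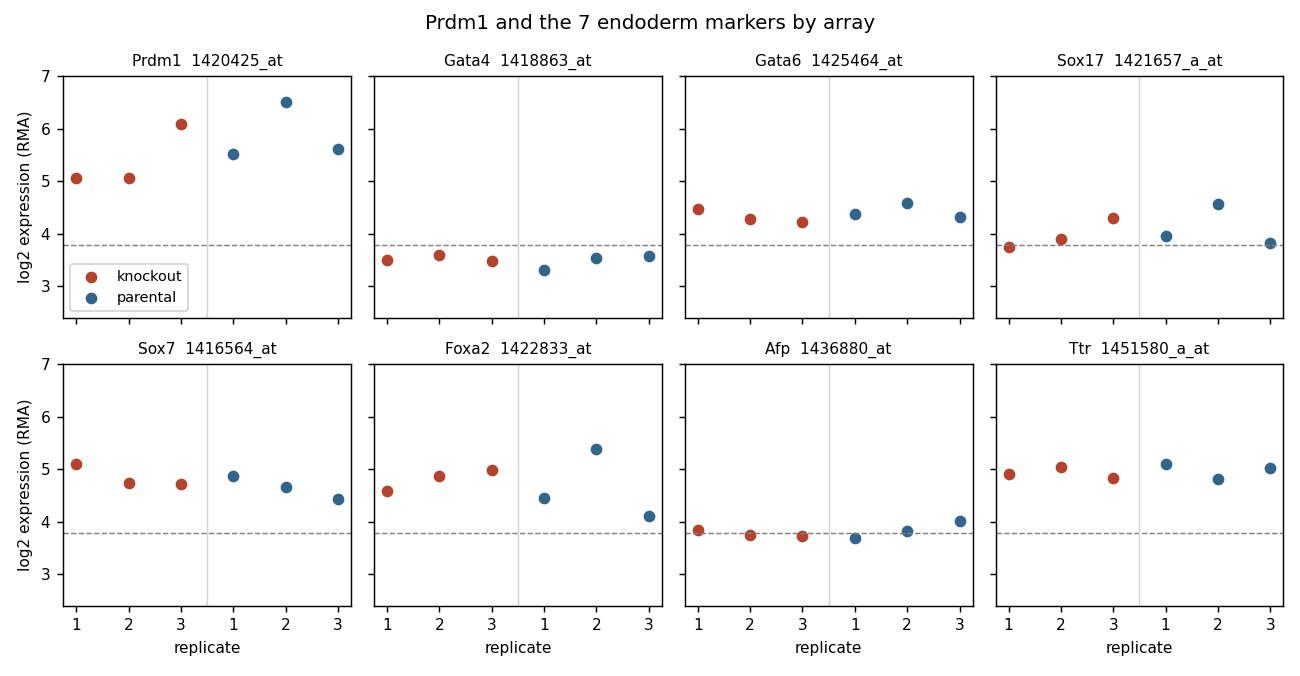
Log2 expression (RMA) of Prdm1 and of each of the 7 endoderm markers by array, with knockout replicates (red) left of parental replicates (blue); the dashed line is the background level of 3.78. Prdm1 is highest at 6.10 on knockout replicate 3 and at 6.51 on parental replicate 2, as are Foxa2 (4.99 and 5.38) and Sox17 (4.30 and 4.57). The other 5 markers have their lowest knockout value on knockout replicate 3, some by narrow margins.

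Markers of mature germ cells were read on the same arrays. Over all genes, 0.511% were called lower and 0.0934% higher, and 6.37% and 4.66% were so at an unadjusted p under 0.05. Of 5 oocyte markers (the egg coat genes Zp1, Zp2 and Zp3 and the growth factor genes Gdf9 and Bmp15), 2 were above background and 0 passed the test of limma (0 also at an unadjusted p under 0.05). Their mean was 3.86, 3.95 and 3.74 in the knockout arrays, against 3.86, 3.73 and 3.93 in the parental arrays. Of 5 spermatid markers 2 were above background and 0 passed, with 1 higher and 0 lower at an unadjusted p under 0.05. Their mean was 3.72, 3.79 and 3.74 in the knockout arrays, against 3.65, 3.75 and 3.79 in the parental arrays.

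Genes that work with the regulators were read from 6 lists with 90 genes, 83 of them measured. Of the 83, 3 fell, 0 rose and 80 did not pass (limma), where 0.511% of all genes were called lower and 0.0934% higher. At an unadjusted p under 0.05, 15 were lower and 4 higher, where 6.37% and 4.66% of all genes were. The median change was -0.07. The 3 genes that fell were Ddx4, Kit and Uchl1. With the feeder mean as a covariate the changes were -1.96 for Ddx4, -0.77 for Kit and -0.72 for Uchl1, and none passed (adjusted p = 0.662, 0.892 and 1, limma). With knockout replicate 3 and parental replicate 2 both left out they were -1.59, -0.90 and -0.63, and none passed (adjusted p = 0.227, 0.169 and 0.302).

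Ddx4, the RNA helicase also known as Vasa, was the 1 of 17 measured RNA-binding regulators that fell. It read 3.75, 2.93 and 3.05 in the knockout arrays, against 5.01, 4.82 and 4.86 in the parental arrays. As for Dazl, all knockout arrays were below background and all parental arrays above it. The change was -1.65 (SE 0.19, adjusted p = 0.0124, limma), at least 2.17-fold lower. The call was lost without knockout replicate 3 (adjusted p = 0.0643) and without parental replicate 1 (0.0841), 2 (0.0513) or 3 (0.0564).

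Elavl2, a neuronal and germ cell RNA-binding protein gene, did not pass on the probe set chosen by the highest mean (-0.58, adjusted p = 0.0900, limma). Another of its probe sets, 1421882_a_at, read 7.51, 7.55 and 7.51 in the knockout arrays, against 7.93, 8.08 and 8.06 in the parental arrays, and passed (-0.50, SE 0.08, adjusted p = 0.0390). The remaining probe sets 1421881_a_at, 1454454_at and 1433052_at did not pass, with changes of -0.50, -0.12 and -0.01 (adjusted p = 0.114, 0.775 and 0.982, limma). Of these, 1433052_at was below background on all 6 arrays. Boll, the closest relative of Dazl in the list, was not called on any of its 4 probe sets, with changes of -0.34, -0.09, -0.15 and -0.01. Dazap1, whose product binds Dazl, changed by -0.26 (SE 0.08, adjusted p = 0.306). Elavl2, Boll and Dazap1 were named after their values were seen.

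Kit, the stem cell factor receptor and a known target of the Sohlh factors, was the 1 of 15 measured partners and targets of the oocyte factors that fell. Probe set 1452514_a_at read 6.58, 6.58 and 6.63 in the knockout arrays, against 7.64, 7.64 and 7.33 in the parental arrays. The change was -0.94 (SE 0.10, adjusted p = 0.00761, limma), a 1.92-fold difference. The other Kit probe set, 1415900_a_at, changed by -0.79 (SE 0.11, adjusted p = 0.0267), and did not pass in 5 of 6 single-array omissions (adjusted p 0.0231 to 0.144 over the 6) or with the replicate block (0.0506). The first probe set did not pass when knockout replicate 1 (adjusted p = 0.0510) or parental replicate 1 (0.0508) was left out and with the replicate block (0.0509). Lhx8, a LIM homeobox gene that Sohlh1 is known to activate, was below background on all 6 arrays (-0.20, adjusted p = 0.538).

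In the list of primordial germ cell specification, Kit was the 1 of 15 measured genes that passed. At an unadjusted p under 0.05, 7 of the 15 were lower and 1 higher, where 6.37% and 4.66% of all genes were. The median change of the 15 was -0.15. Prdm14 and Tfap2c, which act with Prdm1 in these cells, changed by -0.49 (SE 0.14, adjusted p = 0.281) and -0.36 (SE 0.07, adjusted p = 0.122, limma). Dppa3, a maternal and germ cell chromatin gene, changed by -0.53 (adjusted p = 0.143), and Bmp4, the signal that induces germ cells, by 0.51 (adjusted p = 0.0793). These 4 genes were named after their values were seen, and their changes did not pass.

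Of 16 spermatogonial regulators, Kit and Uchl1 fell. Uchl1, a ubiquitin hydrolase of spermatogonia and neurons, read 7.45, 7.63 and 7.67 in the knockout arrays, against 8.10, 8.44 and 8.24 in the parental arrays (-0.68, SE 0.11, adjusted p = 0.0478, limma). Each of the 6 single-array omissions ended this call, with adjusted p from 0.0871 to 0.184 (limma), and so did the replicate block (0.0921). Stra8, the switch to meiosis that Dazl is known to serve, changed by -0.22 (SE 0.12, adjusted p = 0.639).

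The list around Taf7l holds TFIID subunits, TFIIA genes and germ cell variants such as Taf4b. It gave 0 calls among 18 genes (limma), where 0.511% of all genes were called lower and 0.0934% higher. At an unadjusted p under 0.05, 1 was lower and 0 higher, where 6.37% and 4.66% of all genes were. The changes of the 18 ran from -0.25 to 0.12. Taf10 and Taf7 changed by -0.01 and -0.20 (adjusted p = 0.980 and 0.566). Taf7, the somatic counterpart of Taf7l, read 9.12, 8.87 and 8.90 on 1423170_at in the knockout arrays, against 9.22, 9.22 and 9.05 in the parental arrays.

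The list around Tex19.1 also gave 0 calls among 7 genes (limma), beside the 0.511% of all genes called lower and 0.0934% higher. At an unadjusted p under 0.05, 1 was lower and 1 higher, where 6.37% and 4.66% of all genes were. Tex19.2, the paralogue of Tex19.1, read 4.17, 4.34 and 4.13 in the knockout arrays, against 4.40, 4.42 and 4.25 in the parental arrays (-0.14, SE 0.09, adjusted p = 0.689). Ubr2, the ubiquitin ligase that binds Tex19.1, changed by 0.09 (adjusted p = 0.772). The ubiquitin-conjugating enzyme genes Ube2a and Ube2b changed by -0.24 (adjusted p = 0.378) and -0.02 (adjusted p = 0.959).

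**Figure D4:**
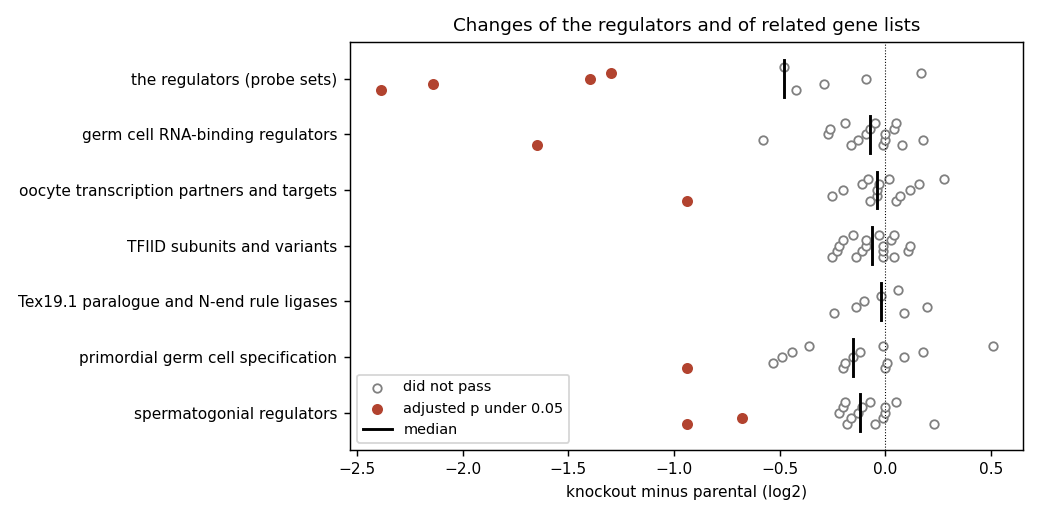
Change of each measured gene (circle) as knockout minus parental on the log2 scale, for the 9 probe sets of the regulators and for the 6 related lists with 1 probe set a gene; filled circles had an adjusted p under 0.05 and black bars are medians. The regulators have 4 filled circles and a median of -0.48, while the medians of the lists lie between -0.15 and -0.02 and Kit appears in 3 of them.

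Genes beside the members in the genome were examined next. The measured genes on each side of the 9 members, in the gene order of RefSeq GRCm38.p6, numbered 18. None of the 18 passed (limma, lowest adjusted p 0.610), where 0.511% of all genes were called lower and 0.0934% higher. At so low a share, 0 calls among 18 genes sets the neighbours apart from no other genes. At an unadjusted p under 0.05 there were 0 of 18, where 6.37% of all genes were lower and 4.66% higher. Of the 18, 7 were below background on all 6 arrays, where a fall could not be seen. For 7 of the 18, between 1 and 10 unmeasured genes lay between the neighbour and the member. Beside Dazl, AY702103 changed by 0.07 and Plcl2 by -0.13, with 1 and 2 unmeasured genes between. Ccdc169 and Dclk1 beside Sohlh2 changed by 0.08 and 0.17, and Tex19.2 and Uts2r beside Tex19.1 by -0.14 and -0.05. The means of AY702103 and Uts2r were below background in both lines. The 8 measured members lie on 7 chromosomes, with Figla and Nobox both on chromosome 6.

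Genes with the most similar profiles were found as those with the smallest root mean square difference from a member over the 6 arrays, after each probe set's parental mean was subtracted. For Dazl 1419542_at these were the drug efflux gene Abcb1a (0.18), the Cullin 3 adaptor gene Klhl13 (0.19) and 1700029P11Rik (0.27). For Sohlh2 they were Klhl13 (0.24), Abcb1a (0.36) and Calb2, the calretinin gene (0.45). For Dazl 1449502_at they were Ttpa, a vitamin E transfer protein gene (0.11), the ubiquitin ligase gene Chfr (0.12) and Prrc1 (0.14). Tex19.1 was nearest to Rec114, a gene of meiotic DNA breaks (0.14), the testis cytochrome gene Cyct (0.16) and Rnf17, a Tudor domain gene of germ cells (0.19). All of these but Rec114 were themselves called lower (limma), and Rec114 changed by -1.24 (adjusted p = 0.0545). The measure takes in the size of the change between the lines and describes these 6 arrays.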

How the data were processed

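The authors deposited log2 expression values per probe set, which RMA had background-corrected, normalized and summarised, per the submitters' processing notes. Which software and chip definition were used is not given in the sources used here. Per the labels' protocols, the arrays were Affymetrix ones, the starting material was total RNA and the label was biotin. RMA gives the 6 arrays a shared distribution (medians 4.21 to 4.25), so a shift of most transcripts would not be visible. Of 45101 probe sets, 64 controls were left out. The number of arrays limits the precision.

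The contrast of knockout minus parental was fitted in R 4.3.3 by limma 3.58.1, using lmFit and eBayes without covariates and two-sided tests, with Benjamini-Hochberg adjustment over 45037 probe sets and a threshold of 0.05. The procedure was tested on simulated data. A gene in a list was represented by its probe set with the highest mean among those with 1 symbol. The fold of a gene at or below background on all arrays of the dimmer group is a bound ("at least"). There, dim arrays are raised to the background level before their mean is set against the brighter mean. Of the 90 genes listed, 7 had no such probe set.

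The members, gene lists, motifs and alternatives were chosen with earlier results of these data known. Named were all members and Dppa4. From each list, up to 4 called genes with the largest changes were named, or else the 2 with the highest means. The 3 genes nearest in profile to each called member probe set and 4 markers were named too. Genes named after their values were seen include Lhx8, Stra8, Tex19.2, Ubr2 and those said to be so above. Among the endoderm markers, Foxa2 and Sox17 were set apart after their values were seen. No 2 arrays held the same values. Alternatives are given in the closing section.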

Additional observations from a re-analysis of the deposited data

How the results depend on the processing

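Dazl 1419542_at was called under every alternative run, and Dppa4 likewise (-1.69 to -1.59 without 1 array). The 4 member calls became 1 with the feeder mean as a covariate, a setting in which the changes kept their size and the standard errors grew, and 3 to 4 without 1 array. They became 2, both of Dazl, with knockout replicate 3 and parental replicate 2 both left out, a setting chosen after seeing the data that leaves 2 arrays against 2; Sohlh2 then changed by -2.29 (adjusted p = 0.0799, limma). Over all probe sets the 181 calls became 18 with the feeder covariate, 312 with an intensity trend and robust prior, 36 without that pair of arrays, 82 with a log2 change of at least 1 and 70 to 112 without 1 array. The 3 calls among the related lists became 0, 5, 0, 1 and 0 to 3 in the same settings. Kit and Ddx4 had changes of -0.77 and -1.96 with the feeder covariate (adjusted p = 0.892 and 0.662) and of -0.90 and -1.59 without that pair of arrays (0.169 and 0.227), against -0.94 and -1.65 with all arrays and no covariate. Nobox turned to 0.02 with the feeder covariate, and no other member changed sign under any alternative. Quantile normalization again, subtraction of array medians, probe sets above background only and leaving out probe sets with the x_at or s_at ending kept all 4 member calls. The feeder marker mean differed by 0.10 to 0.16 without 1 array.

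The labels do not say whether equal replicate numbers mark paired arrays. Deviations from the group means correlated at 0.112, -0.364 and -0.287 for equal numbers. These correlations cannot settle it, because the deviations within a group of 3 arrays are tied to each other. With the replicate number as a block, 88 probe sets, 3 member probe sets and 1 gene of the related lists were called; Dppa4 stayed called (-1.63, adjusted p = 0.00611). The deviations of knockout replicate 3 and parental replicate 2 had a correlation of 0.371, and those of knockout replicate 2 and parental replicate 3 one of 0.379. The remaining pairs of unequal numbers ran from -0.139 to 0.036. Where the reported calls were lost without 1 array, the cause was not tested; the number of arrays was also smaller. Signals of Sohlh1 and Taf7l, below background on all 6 arrays, limit what can be said of them.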
